A study of Oryctolagus cuniculus with 3 samples.

Results

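HK2, ALDOC, PFKFB3, SLC16A1, HIF1A and HILPDA are 6 genes of glucose use, lactate transport and the response to low oxygen, and they were followed through the progression and regression of atherosclerosis in the rabbit aorta. Each was found by its symbol in the list of 3715 changed genes published with these arrays, and its probe was the single probe whose log2 ratios to control both lay within 0.006 of that row. The ratios to control of these probes, and with them the ratio of recovery over model, were therefore fixed by the choice and are given as a description. The study left genes with repeated absent marks out of that list, so detection above background entered the choice in part. The levels of the signals did not otherwise enter it. For HIF1A the row also matched the median over 3 probes, so its further probes entered the choice through that median.

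Gene expression was measured on 3 single-colour Agilent rabbit arrays, with 1 array for each of the control, model and recovery groups. The control aorta (day 0) came from an uninjured rabbit on normal chow. Its sample title begins with PBS, which the study does not explain for this group. The model aorta (day 30) came from a rabbit given a high-cholesterol diet with peanut oil for 4 weeks and balloon injury of the abdominal aorta within days of starting it. The recovery aorta (day 60) came from a rabbit treated in the same way and then returned for 4 weeks to chow without added cholesterol or fat, which the study describes as a restricted intake and the sample labels as a normal diet. All were male New Zealand white rabbits, 3 months old at the start, and the aorta used in each group was selected from 4 animals by its pathology and ultrasound images. Because each group had a single array, the spread between rabbits is unknown and no test could be made, and every difference below is one between single aortas. Time, injury, diet and animal cannot be told apart in them.

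Glycolysis splits glucose into pyruvate and yields energy without oxygen. Hexokinase traps glucose in the cell, aldolase cleaves the sugar bisphosphate, and fructose 2,6-bisphosphate, made by the PFKFB enzymes, accelerates the committed step between them. Pyruvate is then reduced to lactate and carried across the membrane by monocarboxylate transporters, or it enters the mitochondria. Hypoxia-inducible factors, of which HIF1A is a regulated subunit, are destroyed when oxygen is present and switch on glycolytic genes when it is scarce. Thickened and lipid-laden arterial walls are known to contain poorly oxygenated zones, and macrophages in such walls are known to be strongly glycolytic.

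The deposited values are log2 signals that had been quantile-normalized by the authors. Values below a floor of 4.37, the 40th percentile of all gene probes, give only a bound, and a ratio with such a value on 1 side is a bound as well. A difference was called when it was at least 2-fold after flooring. The matched probes of the 6 genes lay within 0.0047 of their rows, and the next nearest probe of any of them lay 0.0305 or more away. Probe numbers on this array run in groups of up to 5 consecutive numbers, and for 3170 of the 3715 listed genes the published ratios lay within 0.006 of the median over such a group. By this wider rule HK2, ALDOC, PFKFB3, SLC16A1 and HILPDA each had 1 probe and HIF1A had 3. The error of a single probe can be gauged from 3130 groups with at least 3 probes, all above the floor in every array. Within them the SD of the log2 ratio between probes had a median of 0.0896 for the ratio of model to control, 0.0859 for that of recovery to model and 0.0860 for recovery over control, with 95th percentiles of 0.308, 0.282 and 0.309. These SDs cover the measurement of 1 RNA by different probes and not the spread between animals.

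The signals of cell type markers differed between the 3 arrays. The smooth muscle markers MYH11 and ACTA2, which define the aortic media, lay above the floor in all 3 arrays. The summed signal of the 5 assigned markers (of 10 listed) was, as a log2 value, 13.30 for control, 17.09 for model and 17.65 for recovery, with 1, 0 and 0 of them below the floor. The 4 assigned adipocyte markers (of 10) gave 17.33, 13.27 and 13.69, with 0, 2 and 2 of them below the floor. RBP4 carried the rise of this sum from model to recovery, and all 4 were at least 2-fold lower than control in both arrays. The 2 assigned erythroid markers (of 10) gave 12.87, 8.81 and 6.41, with 0, 1 and 1 below the floor. The 3 endothelial markers (of 10) gave 10.83, 7.84 and 9.33. CLDN5 carried the endothelial rise from model to recovery, and 2 of the 3 were at least 2-fold lower in recovery than in control. The 7 lymphocyte markers (of 10) gave 13.66, 11.37 and 13.00, sums carried by MS4A1, with 0, 5 and 5 of them below the floor and 6 of 7 at least 2-fold lower in recovery than in control. The 4 macrophage markers (of 10) gave 7.87, 8.60 and 6.40, with 2, 0 and 2 below the floor. ACP5, at 7.47, 6.52 and 4.75, carried the fall of this sum from control to recovery. The other 3 (ITGAM, MMP12 and CX3CR1) were at least 2-fold higher in model than in control, and none of them was called between recovery and control. The 5 adventitial fibroblast markers (of 10) gave 14.34, 13.32 and 11.39, sums carried mainly by COL1A1. DPT, MFAP5 and CD34 were instead at least 2-fold lower in model than in control and within 2-fold of model in recovery. COL14A1 had log2 ratios of 0.92 in progression and -1.37 in regression. The 2 skeletal muscle markers (of 10) gave 5.96, 11.22 and 9.91. In bulk tissue, fewer cells of a type and less RNA per cell cannot be told apart. The part of these shifts in the results below was not tested.

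**Figure D1:**
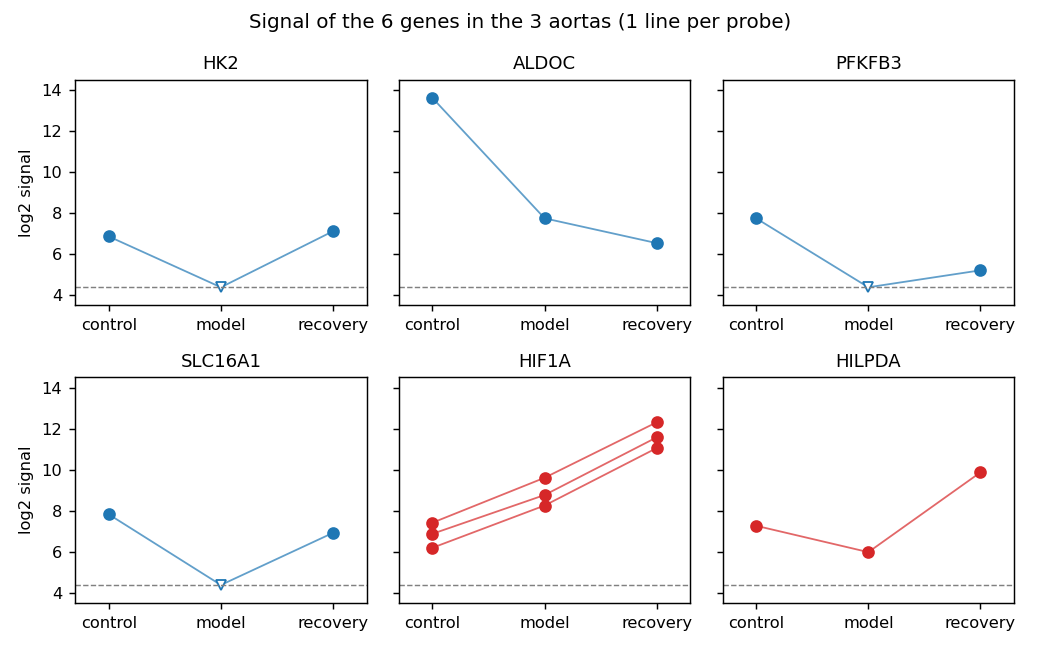
Log2 signal (y axis) of the 6 genes in the control, model and recovery arrays (x axis), with 1 line per probe, the floor of 4.37 as a dashed line, and open triangles for values below it, drawn at the floor. HK2, PFKFB3 and SLC16A1 are below the floor only in the model array, ALDOC is highest in control, the 3 HIF1A probes are highest in recovery, and HILPDA is lowest in model and highest in recovery.

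HK2 encodes hexokinase 2, the insulin-regulated form that phosphorylates glucose in muscle and fat. Its log2 signal was 6.86 in the control array and 7.11 in the recovery array, and it did not reach the floor in the model array. The model value of HK2 was therefore lower than the control value by at least 5.58-fold. The recovery value exceeded the model value at least 6.66-fold. Recovery lay 0.25 above control on the log2 scale, which is under 2-fold. The SD between probes for this ratio had a median of 0.086 and a 95th percentile of 0.309 over the probe groups. The size of both ratios depends on the floor. With no floor the log2 ratios of the 2 steps were -3.04 and 3.29. At a 60th-percentile floor they were -0.27 and 0.53 and were no longer called.

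Among the other genes of glucose entry, SLC2A3, encoding the high-affinity glucose transporter GLUT3, was represented by 5 probes. Its median log2 signal was 4.83 in control and 7.56 in recovery. All 5 SLC2A3 probes were below the floor in model, with recovery over control at 2.78 ± 0.30 (SD, n = 5 probes). The increase of SLC2A3 from model to recovery was thus 9.12-fold or more, whereas no 2-fold bound could be set in progression because the control level was only 0.46 above the floor. HK3, a hexokinase of blood cells, was at 4.85 in control and below the floor in the other 2 arrays.

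ALDOC encodes aldolase C, the aldolase isoform best known from brain. It had the widest range of the 6 genes: the control array gave a log2 signal of 13.61, the model array 7.74 and the recovery array 6.53, all above the floor. ALDOC was 58.5-fold lower in model than in control, and of all probes tested 0.228% had a lower ratio. From model to recovery the ALDOC signal was lower by a further 2.31-fold, which left it 135-fold under the control array. ALDOC was the only one of the 6 genes that was lower in recovery than in model.

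The other enzymes of the glycolytic sequence had smaller ratios. GPI, which converts glucose 6-phosphate to fructose 6-phosphate, had log2 signals of 13.42, 10.76 and 10.84 in control, model and recovery. TPI1, which interconverts the triose phosphates made by aldolase, had medians of 13.46, 11.36 and 11.79 over 5 probes. GPI and TPI1 were 6.34-fold and 4.37-fold lower in model and remained 5.99-fold and 3.23-fold lower than control in recovery, so that neither had come back to the control level. Their differences between recovery and model, at 0.08 and 0.42, changed sign when the arrays were scaled to spiked-in controls.

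A second set of enzymes was within 2-fold of control in recovery. ALDOA, the muscle aldolase, had log2 signals of 13.62, 12.42 and 13.08. PGAM1, a phosphoglycerate mutase, had 10.26, 9.04 and 9.88. ENO1, the enolase found in most tissues, had medians of 11.49, 10.68 and 12.11 over 5 probes, and ENO2, the neuronal enolase, had 9.61, 8.96 and 10.41. ENO1 and ENO2 were 2.69-fold and 2.75-fold higher in recovery than in model and lay 0.65 and 0.81 above control on the log2 scale. Scaled to spiked-in controls, their log2 ratios of recovery over model were 0.88 and 0.91, under 2-fold. PKM, the pyruvate kinase of most adult tissues outside liver, ran the other way in progression, with log2 signals of 10.21, 10.98 and 11.81, and was 3.03-fold higher in recovery than in control. The muscle enolase ENO3 was below the floor in all 3 arrays. Of the 10 assigned enzymes after hexokinase, ALDOC among them, 6 were at least 2-fold lower in model and 0 higher, where 13.1% of all probes tested were lower and 11.9% higher. Scaled to spiked-in controls, 3 were lower (ALDOC, GPI and TPI1) and PKM was higher, with a ratio of 1.23. The assignments of 4 of the 10, including ALDOA, PGAM1 and PKM, are less certain, with more than 0.1 chance matches expected for each. Only genes already called changed on these arrays could be assigned, so these counts are no independent evidence of a direction.

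PFKFB3 encodes a bifunctional enzyme with high kinase activity that raises fructose 2,6-bisphosphate and is itself a known hypoxia-inducible gene. Its log2 signal was 7.74 in control and 5.2 in recovery, and the model array was below the floor. PFKFB3 was at least 10.3-fold lower in model than in control. The bound for recovery over model was 1.78-fold, below the threshold, because the recovery level stood only 0.83 above the floor. In recovery PFKFB3 was still 5.79-fold lower than in control, whereas HK2 and SLC16A1 were within 2-fold of it.

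The 2 other PFKFB genes that could be assigned to a probe were low in both arrays. PFKFB1, the form known from liver and muscle, was at 11.10 in control and below the floor in model and recovery, which makes it at least 106-fold lower in each. PFKFB4 was at 9.91 in control and 4.74 in model, a 36.1-fold difference, and did not reach the floor in recovery. The adipocyte markers ADIPOQ and PPARG were likewise highest in control, both at 10.85, and were below the floor in model and recovery. Their part in the values of ALDOC, PFKFB1 and PFKFB4 was not tested.

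SLC16A1 encodes the monocarboxylate transporter MCT1, which moves lactate, pyruvate and ketone bodies across the plasma membrane. Its log2 signal was 7.82 in control and 6.92 in recovery, with the model array again below the floor. The bound on SLC16A1 was 10.9-fold for the lower value in model and 5.83-fold for the higher value in recovery relative to model. It stood at -0.90 relative to control in recovery, under 2-fold. At a 60th-percentile floor the ratio of recovery over model was 0.34 and was no longer called, while that of model over control was -1.24 and was.

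Among the genes listed for lactate and pyruvate handling, LDHA and PDK4 also had their lowest signal in the model array. LDHA, the lactate dehydrogenase subunit that favours lactate formation, had 5 probes with median log2 signals of 11.98, 10.54 and 12.74 in the 3 arrays. The LDHA ratio averaged -1.46 ± 0.07 in progression and 2.23 ± 0.05 in regression (SD, n = 5 probes). These SDs are between probes on the same arrays and do not cover the spread between animals. Scaled to spiked-in controls, its median ratio in progression was -0.97, just under 2-fold. PDK4, a kinase that inhibits pyruvate dehydrogenase inside mitochondria and is known to be induced by fasting, had 4 probes with medians of 7.27, 5.57 and 9.75. Its ratio averaged -1.70 ± 0.13 in progression, 4.20 ± 0.08 in regression and 2.5 ± 0.12 for recovery over control (SD, n = 4 probes). BSG, which encodes basigin, the partner that carries MCT1 to the membrane, was instead at 13.23, 11.91 and 11.51 and was 3.30-fold lower in recovery than in control, an assignment with 0.107 chance matches expected. The lower value of BSG in model, at -1.32, was -0.85 under that scaling.

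HIF1A encodes the oxygen-regulated subunit of hypoxia-inducible factor 1. Its matched probe read 6.19 (log2 signal) in control, 8.25 in model and 11.06 in recovery, so HIF1A was 4.18-fold higher in model than in control, 6.98-fold higher in recovery than in model and 29.2-fold higher in recovery than in control. It was the only one of the 6 genes with a higher signal in model than in control. The second HIF1A probe of the same group had log2 signals of 7.41, 9.61 and 12.31, and the third had 6.87, 8.76 and 11.58. All 3 probes thus showed the order control, model, recovery. Over them the log2 ratio averaged 2.05 ± 0.15 in progression, 2.77 ± 0.06 in regression and 4.82 ± 0.10 for recovery over control (SD, n = 3 probes). The published row matched the median over these probes, so their agreement is not independent of the choice. HIF1A is regulated chiefly through the stability of its protein, which arrays do not measure.

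The related subunit EPAS1, also called HIF-2 alpha and prominent in endothelium, showed the same order, with log2 signals of 5.0, 6.44 and 8.24 in the 3 arrays. EPAS1 was 2.72-fold higher in model than in control and 3.47-fold higher in recovery than in model. ARNT, the constant partner that both alpha subunits bind, varied less, with medians of 7.20, 6.93 and 7.95 over 4 probes and a ratio of recovery over model of 1.07 ± 0.22 (SD, n = 4 probes). The ARNT assignment is among the less certain ones, with 0.173 chance matches expected, and its median ratio of recovery over model was 1.04, or 0.49 when scaled to spiked-in controls. No other gene of the 10 listed for HIF subunits and oxygen sensing was assigned to a probe.

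**Figure D2:**
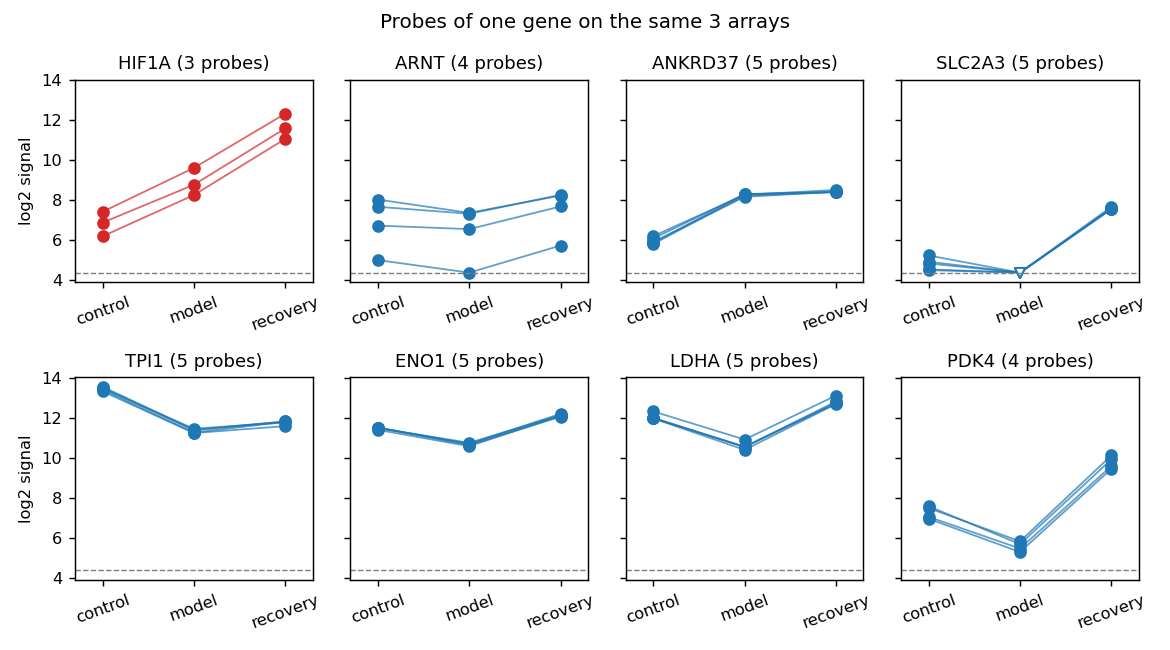
Log2 signal (y axis) of every probe of 8 genes with several probes in the control, model and recovery arrays (x axis), with 1 line per probe and the floor as a dashed line. The 3 HIF1A probes run in parallel about 5 log2 units upward, the LDHA and PDK4 probes are lowest in model and highest in recovery, and the 5 SLC2A3 probes meet at the floor in model.

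HILPDA encodes a small lipid droplet protein that is induced by hypoxia and restrains the breakdown of stored triglyceride. Its log2 signal was 7.26 in control, 5.98 in model and 9.87 in recovery, all above the floor. HILPDA was 2.44-fold lower in model than in control, 14.9-fold higher in recovery than in model and 6.10-fold higher in recovery than in control. Of all probes tested, 99.7% had a lower ratio of recovery over model. The lower value in model did not hold as a call under each scaling: with the arrays scaled to spiked-in controls it was -0.82, and -0.68 at the floor of the 60th percentile. The ratios of recovery over model under the same settings were 3.34 and 3.29.

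Other genes known to respond to hypoxia did not share 1 pattern. ADM, encoding the vasodilator peptide adrenomedullin, resembled HILPDA with log2 signals of 6.07, 5.24 and 7.33, with a 4.27-fold higher signal in recovery relative to model. ANGPTL4, an inhibitor of lipoprotein lipolysis, had 9.5, 7.19 and 9.53, 4.96-fold lower in model than in control and within 2-fold of control in recovery. NDRG1, an assignment with 0.188 chance matches expected, had 5.80, 5.47 and 6.65, a difference in progression whose sign turned with the scaling to spiked-in controls. ANKRD37 resembled HIF1A only in the first step, at 5.91, 8.26 and 8.41 over 5 probes, with ratios of 2.28 ± 0.15 in progression and 0.18 ± 0.07 in regression (SD, n = 5 probes). The second of these turned sign under the same scaling.

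BNIP3L, a mitophagy receptor that red cell precursors also use, was at 10.59, 8.47 and 8.20 and was 5.27-fold lower in recovery than in control. The erythroid markers ALAS2 and EPB42 were lower in the same 2 arrays, ALAS2 at 12.84, 8.75 and 6.30, and their part in the BNIP3L value was not tested. FLT1, a receptor of vascular endothelial growth factor on endothelium, was at 5.87 in control and below the floor in the other 2 arrays, at least 2.82-fold lower. The endothelial marker PECAM1 was at 8.94, 6.42 and 7.04. The other assigned endothelial markers differed from each other in recovery. NOS3 was 5.53-fold lower in model and 6.73-fold lower in recovery than in control. CLDN5 was 13.5-fold lower in model than in control and 6.81-fold higher in recovery than in model, which left it 1.99-fold lower than control, just under the threshold. The part of endothelial cells in the FLT1 value was not tested.

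**Figure D3:**
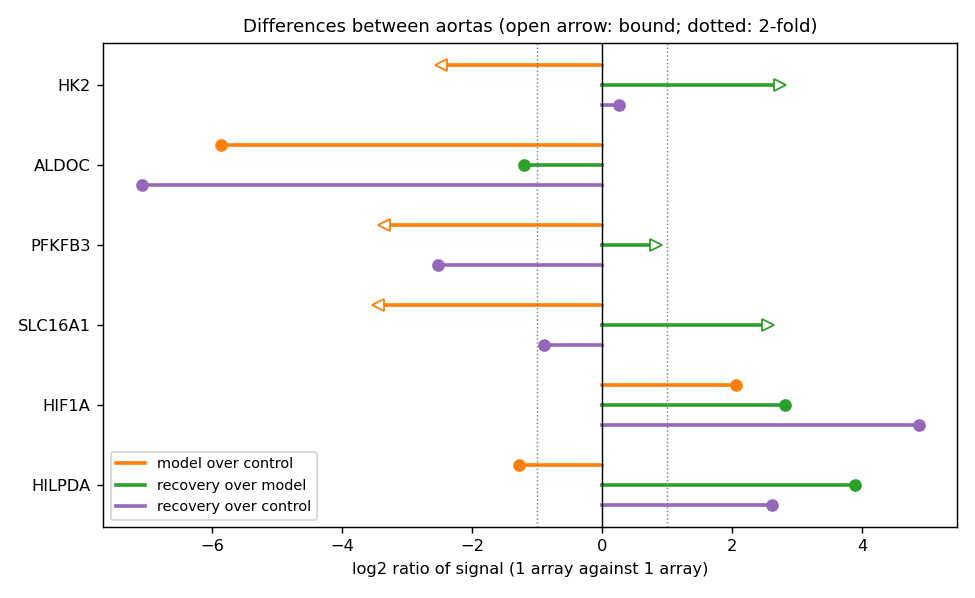
Log2 ratios (x axis) of the 6 genes (y axis) for model over control, recovery over model and recovery over control, each from 1 array against 1 array, with open arrows for bounds and dotted lines at 2-fold. The bars for model over control point to the left in every gene but HIF1A, and those for recovery over model point to the right in every gene but ALDOC.

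Set side by side, the 6 genes fell into different courses. In progression 5 were at least 2-fold lower and 1 higher, where 25.0% of all 28950 probes tested were called, 13.1% lower and 11.9% higher. In regression 4 were at least 2-fold higher, 1 was lower and PFKFB3 had a bound under 2-fold, where 15.2% of all probes were called, 7.05% higher and 8.16% lower. Between recovery and control 2 were higher, HIF1A and HILPDA, 2 were lower, ALDOC and PFKFB3, and HK2 and SLC16A1 were within 2-fold, where 32.0% of all probes were called, 16.0% higher and 16.0% lower. As the genes were taken from a list of changed genes through these ratios, nothing is read from their share of calls. Comparisons that share an array are not independent of each other.

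The same comparisons were made for 71 further genes of 6 lists that cover glucose uptake, glycolytic enzymes, PFKFB regulators, lactate and pyruvate handling, HIF subunits and hypoxia response. Of these, 33 were in the list of changed genes and 24 were assigned to probes. In progression 13 of the 24 were at least 2-fold lower, 2 were higher (EPAS1 and ANKRD37) and 9 were under 2-fold, with a median log2 ratio of -1.13 against 0.02 over all probes tested. In regression 10 were higher, 0 were lower and 14 were under 2-fold, with a median of 0.84 against 0.00. Between recovery and control 6 were higher, 7 lower and 11 under 2-fold, with a median of 0.02 against 0.04. Of all probes tested, 13.1% were lower and 11.9% higher in progression, and 8.16% were lower and 7.05% higher in regression. Between recovery and control 16.0% were lower and 16.0% higher. The lists were drawn up by function, but only genes already called changed on these arrays could be assigned, so the counts are no independent evidence of a direction. The scaling altered these counts: against spiked-in controls 8 were lower and 3 higher in progression, and 6 were higher and 0 lower in regression, with medians of -0.67 and 0.29. Of all 28976 probes tested under that scaling, 2408 were lower and 7005 higher in progression, and 6103 were lower and 823 higher in regression.

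**Figure D4:**
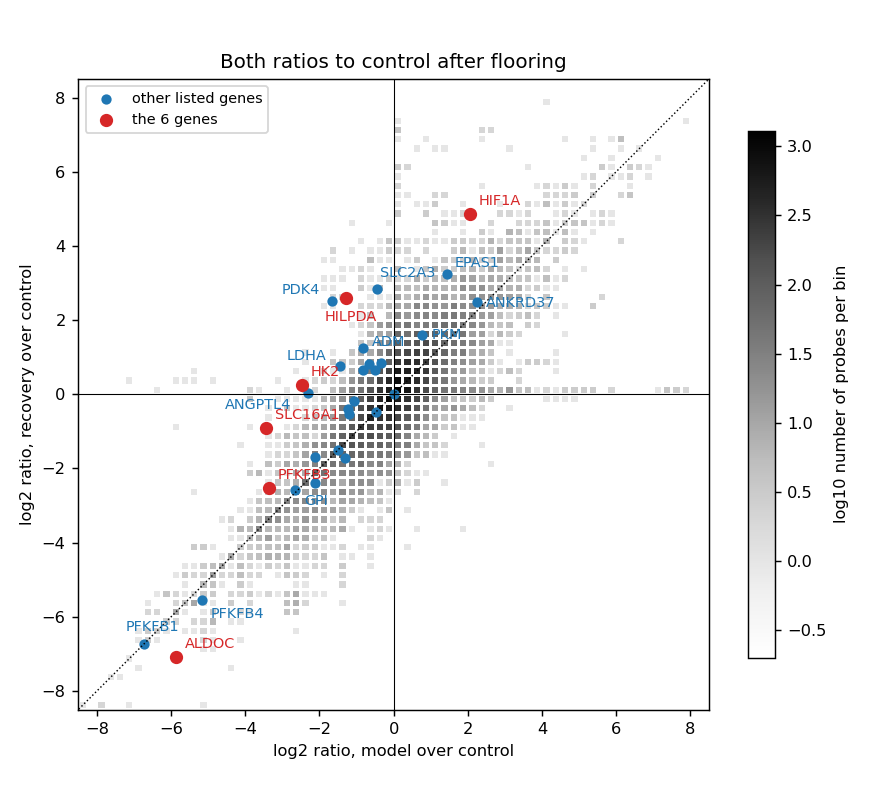
Log2 ratio of model over control (x axis) against recovery over control (y axis) after flooring, with grey squares for the number of all probes tested per bin (log10 scale), red points for the 6 genes and blue points for the other assigned genes of the lists. Points above the dotted diagonal are higher in recovery than in model: HK2, SLC16A1, PFKFB3, HILPDA and HIF1A lie above it and ALDOC below it.

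The genes whose 2 ratios to control lay nearest to those of a member were sought among 595 other genes assigned by a single probe, for the members above the floor in all 3 arrays. Likeness was the Euclidean distance of the 2 log2 ratios, over 3 arrays. For HILPDA they were FOS, an immediate early transcription factor, at a distance of 0.09, then SLC22A4 at 0.42 and ITIH4 at 0.49. For HIF1A they were BICD1 at 0.11, TIFA at 0.56 and INPP4A at 0.63. For ALDOC they were TTC36 at 0.33, LOC100347623 at 0.55 and the collagen gene COL5A3 at 0.69.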

How the data were processed

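Images had been read by the authors with Agilent Feature Extraction, listed as version 10.7 by the submitters, and quantile normalization was done in GeneSpring before deposit. The values deposited by the authors were log2 signals of 43603 gene probes and 58 control rows, and all 3 columns were used. Background treatment is not given in the sources used here. The number of arrays, 1 per group, limits the precision. Python 3.11.15, numpy 2.4.6 and pandas 2.3.3 were used.

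The members and gene lists were chosen with earlier results of these data known. The value table has no gene names. Genes were assigned through both ratios to control of the published gene list, whose fold changes were used for this match only. The rule set at the outset took 1 probe within 0.006 where fewer than 0.05 chance matches were expected, and it assigned 12 of the 77 pathway genes. The values of pathway genes and markers come from a rule chosen after the data were seen, which matched the median log2 ratio over a group of up to 5 consecutive probe numbers, with a limit of 0.2. It assigned 30 of 77. SLC2A4 was assigned only by the first rule and is not described. Levels of genes with several probes are medians over them. Named genes are the members, the assigned pathway genes, the 3 nearest patterns of each member above the floor in all arrays, and a few cell type markers chosen after their values were seen. Another assigned enzyme is counted but not described. The assignment and calling were tested on simulated data. The alternatives changed the floor, the fold threshold, the scaling and the match. Sequences and genome positions are not shown.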

Additional observations from a re-analysis of the deposited data

How the results depend on the processing

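With 1 array per group no setting without a replicate could be run. No paired analysis was possible because each group holds 1 array and no test was made. All 6 members kept a unique probe at the 3 other tolerances tried. Of 90 member ratios under other floors and scalings, 55 moved by less than the median SD between probes, 35 moved by more and 0 called ratios changed sign. The count of members called in regression was 5, and it was 3 at a 60th-percentile floor, 4 at 3-fold, and 6 with no floor, a 20th-percentile floor or 1.5-fold. In progression it was 6, and it was 4 at a 60th-percentile floor and 5 at 3-fold or scaled to spiked-in controls. Between recovery and control it was 4, and 5 at 1.5-fold. Probes called numbered 7235 in progression, 4402 in regression and 9271 between recovery and control. They numbered 11976, 9104 and 15319 with no floor, 12772, 9670 and 15034 at 1.5-fold, 3783, 1579 and 4936 at 3-fold, and 4528, 2524 and 6035 at the floor of the 60th percentile. In regression they numbered 7081 with the floor at the 20th percentile and 6926 with arrays scaled to the 8 spiked-in controls above the floor. That scaling added 0.46 to log2 ratios in progression and -0.55 in regression, and it took the share of higher calls from 47.7% to 74.4% and from 46.3% to 11.9%. Of the pathway genes assigned by a single probe, 11, 9 and 8 were called in the 3 comparisons. With a limit of 0.01 expected chance matches 5 were called in regression. With the median over groups of probe numbers, chosen after seeing the data, 17 and 15 were called in progression and between recovery and control at a limit of 0.1, and 21, 15 and 17 in the 3 comparisons at 0.2. The planned median over probes from an array annotation was not run, nor were the promoter and protein features, since both need tables not used here.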

Other observations

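The numbering of the probes held information on genes that the value table does not state. Counted in steps of 5, the 43603 gene probes formed 20283 groups of consecutive numbers, 11562 with 1 probe and 3565 with 5. Of the 3715 genes in the published list, 3170 (85.3%) had both log2 ratios within 0.006 of the median over such a group, against 289 to 315 when the ratios were shifted by 0.1 in 8 directions. For single probes the match was 2616, against 566 to 643 after the shifts. With the limit of 0.2 expected chance matches 2660 genes were assigned to 1 group each, with 29.2 false assignments expected, and with the limit of 0.1 it was 1925 with 11.7. Of 563 genes assigned by both rules, the single probe lay in the assigned group for 560. This pattern was noticed in these data and used on the same data, so each assignment remains provisional until it is set against the annotation of the array.

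The same grouping showed where genes of glucose use were measured repeatedly. The 5 probes of LDHA, TPI1 and ENO1 gave SDs of 0.07, 0.06 and 0.05 for the log2 ratio of model over control, and the 3 probes of HIF1A gave 0.15. In contrast, HK2, ALDOC, PFKFB3, SLC16A1 and HILPDA each rest on 1 probe.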
